A study of Mus musculus with 10 samples.

Results

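The genes described here are 10 cytokine genes of T helper cells: Il10, Ifng, Il2, Il3, Il4, Il17a, Il21, Csf2, Tgfb1 and Il16. They were chosen by name, and every probe set to which the platform annotation gives one of these symbols and no other was taken, which gave 15 probe sets among 34945 with 1 symbol. One further probe set, annotated to both Ntan1 and Il2, was left out. CD4+ splenocytes came from C57Bl/6 mice aged 8 to 12 weeks, 6 h after surgery under halothane. One group of 5 mice had cecal ligation and puncture (CLP), which spills gut bacteria into the peritoneum and is used to model abdominal sepsis, and the other 5 mice had a sham laparotomy. Negative selection with magnetic beads brought the cells to about 91% CD4+ per the series' design text, so other spleen cells were still present. The RNA of every mouse was amplified in 2 rounds and hybridised to a separate Affymetrix array.

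T helper cells act largely through secreted cytokines, and helper subsets are named by the cytokines they make. T helper 1 cells make interferon gamma, T helper 2 cells interleukin 4, T helper 17 cells interleukin 17A and follicular helper cells interleukin 21, whereas regulatory T cells are known for interleukin 10 and TGF-beta. In resting T cells many of these genes are nearly silent, and they are switched on through the T cell receptor by factors of the NFAT, AP-1 and NF-kB families. A low array signal is therefore a common reading for them, and the distance of each probe set from the array background is given beside its value.

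RefSeq promoters (build GRCm38.p6) were matched for 9 of the 10 genes, all but Il10. The 250 bases before the annotated start are shown for 3 genes named for helper functions: Il2, whose difference between the groups was the largest after that of Il10 among the members that gave a higher CLP mean, and Ifng and Il4, the signature cytokines of T helper 1 and T helper 2 cells. Capitals mark the letters of an NFAT core (GGAAAA), an AP-1 site (TGANTCA) or a TATA box (TATAAA), each searched on both strands.
Il2 promoter, chr3:37125955-37126204, minus strand: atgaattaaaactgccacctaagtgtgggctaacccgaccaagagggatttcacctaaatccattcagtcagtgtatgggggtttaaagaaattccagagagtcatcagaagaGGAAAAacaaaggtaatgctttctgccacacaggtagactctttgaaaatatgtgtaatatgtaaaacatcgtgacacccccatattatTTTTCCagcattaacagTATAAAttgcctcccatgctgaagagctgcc
Il4 promoter, chr11:53618666-53618915, minus strand: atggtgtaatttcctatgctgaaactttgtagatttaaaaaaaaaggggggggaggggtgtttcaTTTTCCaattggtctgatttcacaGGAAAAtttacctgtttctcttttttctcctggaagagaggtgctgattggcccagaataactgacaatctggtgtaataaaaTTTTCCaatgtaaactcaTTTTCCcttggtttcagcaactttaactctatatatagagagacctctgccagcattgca
Ifng promoter, chr10:118440796-118441045, plus strand: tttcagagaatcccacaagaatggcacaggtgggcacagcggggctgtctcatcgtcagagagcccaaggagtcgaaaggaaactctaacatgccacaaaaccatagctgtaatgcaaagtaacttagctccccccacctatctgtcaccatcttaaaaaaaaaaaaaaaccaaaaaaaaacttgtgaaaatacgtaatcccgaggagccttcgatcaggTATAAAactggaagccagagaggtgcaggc
The Il2 promoter held 2 NFAT core matches, 137 and 48 bases before the start, and a TATA box 31 bases before it. The Il4 promoter shown held 4 NFAT core matches and no TATA box match. RefSeq has a second Il4 promoter, chr11:53617289-53617588 on the minus strand, which held 0 NFAT core matches. The Ifng promoter held a TATA box 30 bases before the start and no NFAT core match. No AP-1 match lay in these 3 windows. Among 32851 promoters of 300 bases in the same table, 23.4% held the NFAT core, 7.81% the AP-1 site and 13.6% the TATA box, so these matches are short letter strings that many promoters share. They describe the sequence and do not show binding.

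The deposited intensities were scaled so that all arrays had the same median. Array background was read as each array's own 25th percentile, which lay between 67.3 and 71.3 scaled intensity, and the distance of a probe set from it is given in log2 units. As a second reading, the group means were set against 70 probe sets of 39 genes chosen as restricted to other tissues. Their mean log2 had a median of 6.39 and a 90th percentile of 7.64. Not all of them lay near background, as the brightest tested Mbp probe set was at 11.30 in CLP mice and 11.42 in sham mice. The share exceeded is therefore a rough reading of background. Probe sets bind their targets with unequal strength, so these distances say how far a probe set stands from background and do not rank the transcripts. For the fit, values below a floor of 69.8 were raised to it, and probe sets with a mean under the 40th percentile were left out, leaving 27022. Of the 15 member probe sets, 9 passed this filter and stood for 7 genes, and Ifng, Il3 and Il4 had no probe set that passed. Changes are given as the CLP mean minus the sham mean of log2 values from limma, with p-values adjusted by Benjamini-Hochberg over all tested probe sets and called at 0.05.

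**Figure D1:**
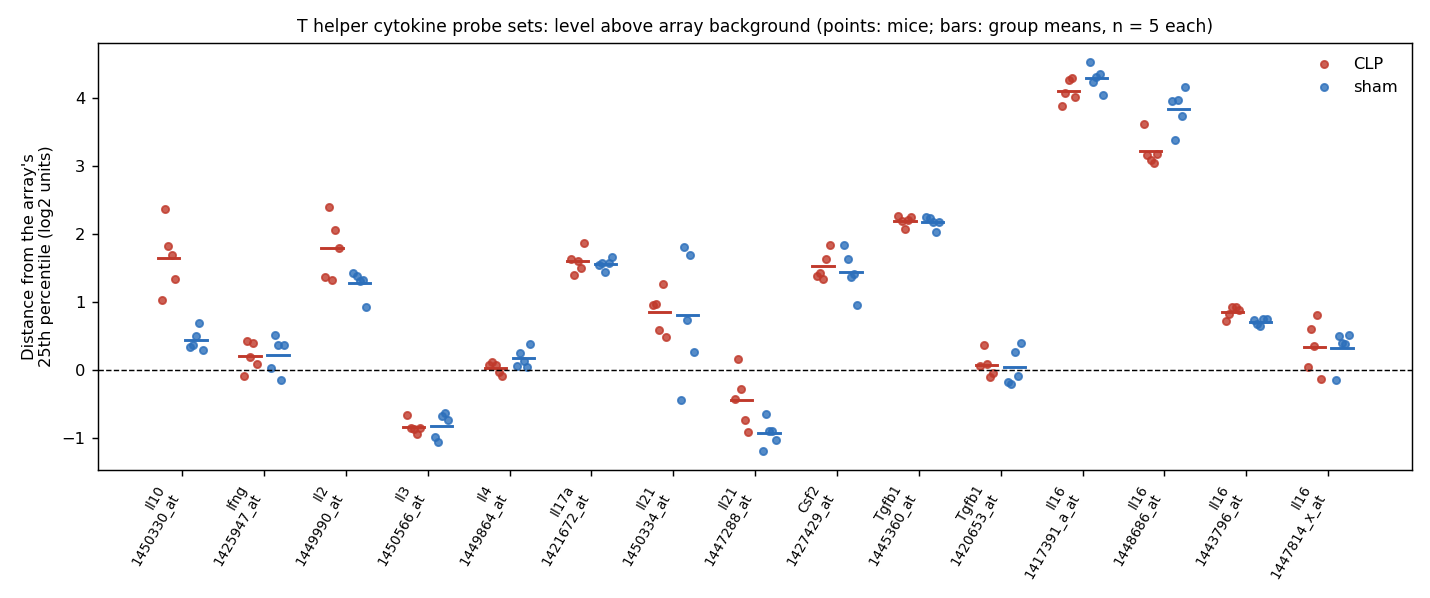
Distance of all 15 member probe sets from the background of their own array, in log2 units, with 1 point for each of the 5 CLP and 5 sham mice. Il10 stands at 1.03 to 2.37 in CLP mice and at 0.30 to 0.69 in sham mice, and Il3 lies below background in all 10.

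The arrays differed in one respect that crosses the groups. The signal of probe sets for 18S ribosomal RNA was between 205 and 304 in CLP mice 2 and 4 and sham mice 2 and 4, and between 1411 and 2724 in the other 6 mice. This split was made from the data and is not a label. Each group held both classes, so member differences are also given within each class. Correlations of log2 values between arrays were 0.95 to 0.98 within CLP and 0.94 to 0.99 within sham.

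Il10 was higher after CLP, and it was the only one of the 9 tested member probe sets that passed. That call rests on the filter on low values, which Il10 passed through the CLP arrays, and without the filter it did not pass (adjusted p = 0.139 in limma). Interleukin 10 is the cytokine that restrains macrophages and T cells during inflammation. The Il10 probe set read 141, 366, 248, 227 and 174 scaled intensity in the CLP mice, against 84.5, 90.8, 97.9, 115 and 85.5 in the sham mice. Every CLP mouse lay above every sham mouse, and the CLP mice spread more widely than the sham mice. The log2 means were 7.78 ± 0.52 in CLP mice and 6.56 ± 0.18 in sham mice (SD, n = 5 each). The difference was 1.22 ± 0.22 (SE), a 2.33-fold higher level with a 95% interval of 1.68 to 3.24, and an adjusted p of 0.0349 in limma. For comparison, 0.167% of the 27022 probe sets passed as higher in CLP, 0.537% as lower and 0.703% in either direction, and 0.862% had every CLP array above every sham array. Because RNA of whole cell samples was measured, more cells making a transcript and more transcript per cell cannot be told apart.

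The Il10 signal stood further from background after CLP than after sham, where it stood close to it. On their own arrays the CLP mice ranked above 52.2% (mouse 1) to 78.7% (mouse 2) of probe sets. The distance of Il10 was 1.03 to 2.37 in CLP mice and 0.30 to 0.69 in sham mice. The CLP mean exceeded 90% of the probe sets of genes from other tissues, and the sham mean exceeded 61.4% of them. Its CLP mean ranked above 67.1% of all probe sets and its sham mean above 36.2%. The fold change is that of the probe set's signal, whose sham values lie near background.

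The direction of the Il10 difference was the same in all 27 alternative analyses that gave a value, with log2 differences between 1.04 and 1.5. It passed the threshold in 15 of them, all of which kept a filter on low values. Without a filter it did not pass, also with the floor at the 1st percentile (adjusted p = 0.0655 in limma). The 15 therefore do not test the dependence on the filter. Leaving out 1 mouse at a time gave differences of 1.04 to 1.38, and Il10 passed without CLP mouse 1 (adjusted p = 0.00647) and without CLP mouse 4 (adjusted p = 0.0487), but not without any of the other 8 mice, where the adjusted p reached 0.111 without sham mouse 3. Within the arrays of low 18S signal the log2 means were 8.17 in 2 CLP mice and 6.67 in 2 sham mice, and within those of high 18S signal they were 7.51 in 3 CLP mice and 6.48 in 3 sham mice. CLP mice lay above sham mice in both classes, and the difference between the classes did not pass (adjusted p = 0.9995 in limma). With the 18S class as a block, and the filter kept, the adjusted p was 0.0138.

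**Figure D2:**
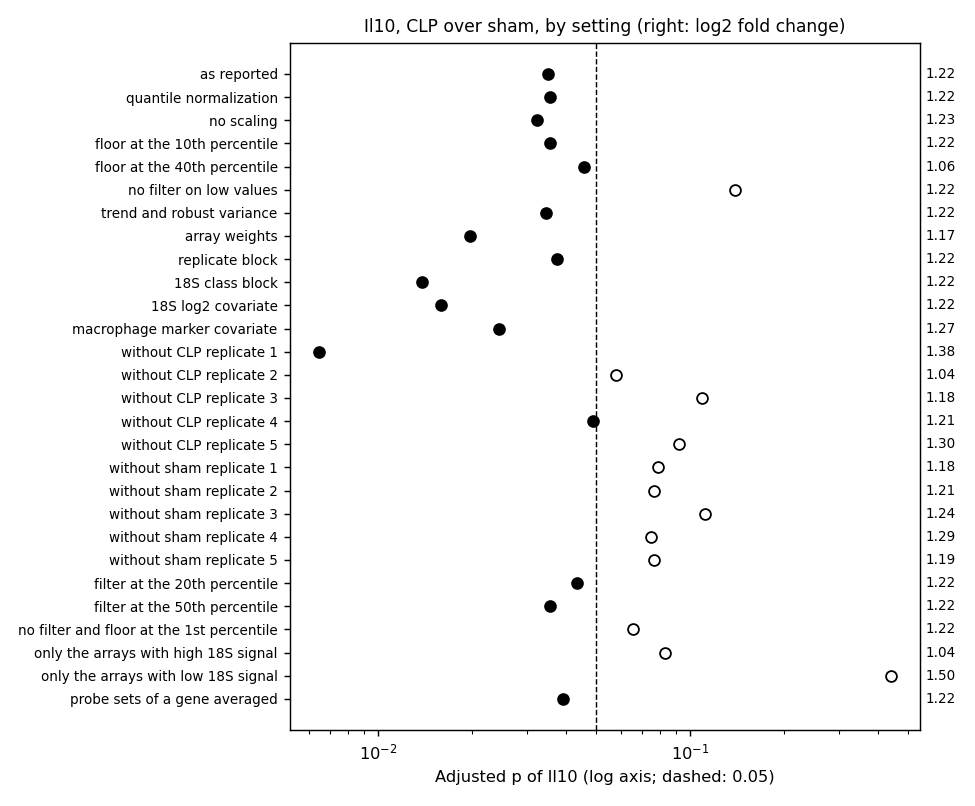
Adjusted p of Il10 (log axis) under each analysis setting, with 1 point per setting, filled where it passed 0.05 (dashed line), and the log2 difference, CLP minus sham, printed at the right. All differences lie between 1.04 and 1.5, while 15 of the 27 alternatives pass, each of them with a filter on low values.

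Markers of other cell types known to make IL-10 were measured beside it. The summed scaled intensity of 14 monocyte and macrophage markers was 4532 to 5557 in CLP mice and 3799 to 5740 in sham mice, and that of 9 B cell markers was 3446 to 6317 in CLP mice and 3270 to 5414 in sham mice. The defining macrophage marker Csf1r, the receptor for macrophage colony stimulating factor, was well off background at a log2 mean of 11.36 in CLP mice and 11.34 in sham mice, and no marker of that list was at the floor on all arrays. Csf1r was the brightest of the list, and other macrophage markers were dimmer. Adgre1 was at 8.14 in CLP mice and 8.12 in sham mice, Itgam at 6.85 in both groups. Lyz2 was at 6.74 in CLP mice and 6.84 in sham mice. Other members of the list differed more between the groups than Csf1r. Marco, a scavenger receptor of macrophages and the marker of lowest p, gave log2 means of 7.26 in CLP mice and 6.23 in sham mice, a difference of 1.03 (adjusted p = 0.121), and Cd14, a receptor for bacterial lipopolysaccharide, gave 8.79 in CLP mice and 8.07 in sham mice (0.72; adjusted p = 0.156), so both had higher means with Il10. Vcam1, an adhesion molecule, differed by -1.20 (adjusted p = 0.134). Cd14, Vcam1, Adgre1, Itgam and Lyz2 were chosen after their values were seen. By the brightest probe set of each marker, 0 of 11 macrophage and 0 of 8 B cell markers passed. Among the B cell markers the brightest was Cd22, at 0.14, and the lowest p was that of Ebf1, at 0.19 (adjusted p = 0.498). A dimmer probe set of the chemokine receptor gene Ccr2, 1421186_at, was called lower at -0.99 (adjusted p = 0.0163), whereas its brighter probe set gave 0.07 (adjusted p = 0.954). The dimmer one passed the level filter through the sham arrays. Its CLP mean ranked above 33.3% of all probe sets, which is near background, and its sham mean above 59.9%. With the mean of the macrophage markers as a covariate, and the filter kept, the Il10 difference was 1.27 (adjusted p = 0.0244). The part of these cells in the Il10 signal was not tested.

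Il2 and Il21 sit next to each other on chromosome 3 with no protein-coding gene between them, and both drive lymphocyte growth. Il2, the T cell growth factor, read 178, 374, 174, 295 and 240 scaled intensity in the CLP mice, against 181, 184, 171, 179 and 133 in the sham mice. CLP mice 2, 4 and 5 lay above all sham mice, and CLP mice 1 and 3 lay within the sham range. The log2 difference was 0.52 ± 0.20 (SE) with a 95% interval of 0.08 to 0.97, and it did not pass over all probe sets (adjusted p = 0.331 in limma). Il2 passed in none of 28 alternatives, with differences from 0.29 to 0.87. The probe set stood 1.79 from background in CLP mice and 1.27 in sham mice.

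Within the 18S classes, log2 means of Il2 in the low class were 8.38 in CLP mice and 7.5 in sham mice, with both CLP mice above both sham mice, and in the high class they were 7.61 in CLP mice and 7.32 in sham mice, with overlap. The difference between the classes was 0.59 ± 0.26 (SE), which did not pass (adjusted p = 0.9995 in limma). Over both groups, Il2 was 0.47 brighter on the log2 scale in the low class than in the high class, which did not pass either (adjusted p = 0.0596).

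Il21, made by follicular helper and T helper 17 cells to help B cells, has 2 probe sets. Its brighter probe set, 1450334_at, read 134, 139, 105, 170 and 96.6 in the CLP mice, against 49.5, 247, 115, 229.7 and 83.1 in the sham mice. The 2 highest values and the 2 lowest were all from sham mice, so the sham range enclosed the CLP range. The log2 difference was -0.046 ± 0.34 (SE; adjusted p = 0.987), and its sign turned in 7 of 25 alternatives. The second probe set, 1447288_at, was at the floor in 9 of 10 mice, with only CLP mouse 2 above it at 79.2, and no fold is given.

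Sham mice 2 and 4, both of low 18S signal, gave the 2 highest Il21 values. Over all mice the low class exceeded the high class by 0.96 on the log2 scale (adjusted p = 0.0107 in limma), as one of the 15.1% of tested probe sets called between the classes. The probe set stood 0.85 from background in CLP mice and 0.81 in sham mice. In the high class, sham mouse 1 lay below background at -0.44 and was raised to the floor, and sham mouse 5 stood at 0.25. The class difference is therefore in part against values near background. The CLP minus sham difference was -0.63 in the low class and 0.35 in the high class, and this contrast did not pass (adjusted p = 0.9995), nor did that of any other of the 27022 probe sets in limma.

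**Figure D3:**
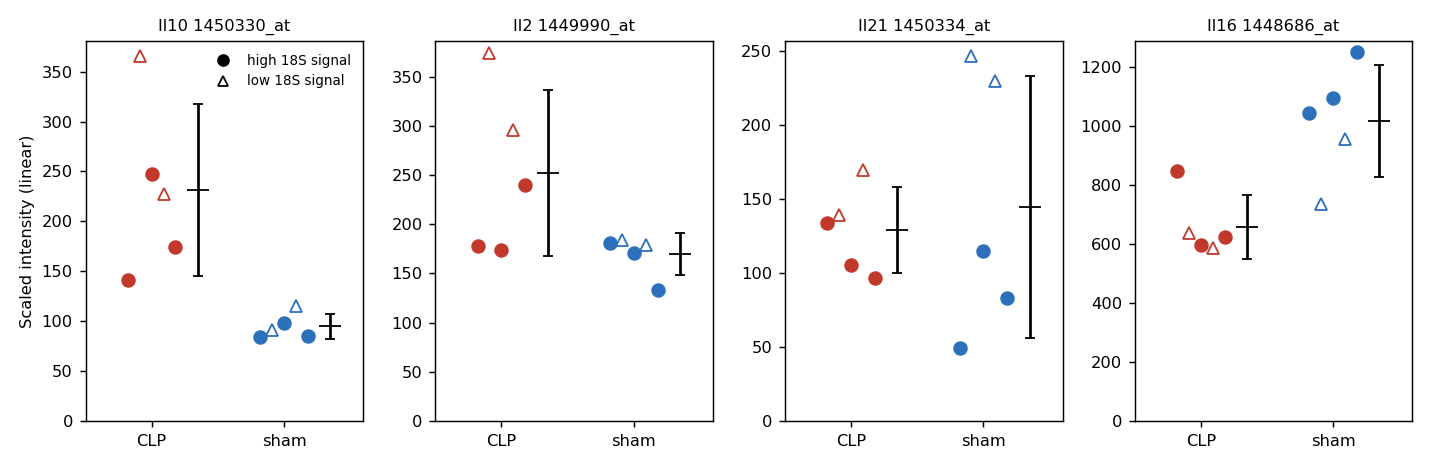
Scaled intensity of single mice for Il10, Il2, Il21 (1450334_at) and Il16 (1448686_at), with CLP left of sham, filled circles for high and open triangles for low 18S signal, and black bars for the mean ± SD (n = 5 each). Il10 is higher in CLP mice in both classes, whereas the 2 open triangles of sham mice top the Il21 panel.

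Ifng, the macrophage-activating cytokine of T helper 1 and NK cells, was at background in both groups. It read 64.8, 95.2, 80.0, 92.9 and 73.2 scaled intensity in the CLP mice, against 68.2, 100.4, 89.5, 64.1 and 89.3 in the sham mice, with the groups fully overlapping. The mean distance from background was 0.20 in CLP mice and 0.22 in sham mice, and the means exceeded 48.6% of the probe sets of other tissues in CLP mice and 50% in sham mice. Without the filter the log2 difference was -0.02 ± 0.13 (SE), with a 95% interval of -0.33 to 0.29 and an adjusted p of 1. An interval around values so close to background bounds the signal of the probe set and not the transcript.

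NK cells are another source of interferon gamma. The summed level of 9 NK cell markers was 3514 to 3688 in CLP mice and 3947 to 4662 in sham mice, so the groups did not overlap, although none of 7 tested markers passed. Klrd1, an NK cell receptor chain and the brightest of them, gave -0.54 (adjusted p = 0.195), and Klrg1, the marker of lowest p, gave -0.35 (adjusted p = 0.179). Of the 7 tested markers, 5 had a lower mean in CLP mice. The other 2, Gzma at 0.34 and Prf1 at 0.07, had a higher mean. The sum is weighted to the brightest markers and does not stand for the list. Ncr1, a defining NK cell receptor, was at the floor on all arrays. The part of NK cells in the Ifng reading was not tested.

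Il4, Il3 and Csf2 lie in one cytokine cluster on chromosome 11, where Il3 and Csf2 are neighbours and 9 protein-coding genes separate Csf2 from Il4. Il4, which directs antibody class and T helper 2 differentiation, read 72.5, 76.4, 73.7, 69.0 and 64.9 in the CLP mice, against 69.98, 83.6, 75.8, 73.3 and 90.4 in the sham mice. These values overlapped and lay at background, with distances of 0.02 in CLP mice and 0.17 in sham mice. The unfiltered log2 difference was -0.11 ± 0.07 (SE; adjusted p = 0.872).

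Il3, a growth factor for basophils and mast cells, was below the floor of 69.8 on all 10 arrays. Its scaled intensity was 36.5 to 43.5 in CLP mice and 33.7 to 45.8 in sham mice. Set to the floor, it could exceed none of the 70 probe sets of other tissues. Of these, 27 were themselves at or below the floor on all arrays, so they tied with it. No fold is given, and a change in Il3 was not detectable with this probe set. Csf2, which encodes GM-CSF, a growth and activation factor for myeloid cells, read 180.0, 191, 177, 219 and 246 in the CLP mice, against 240.2, 219, 179, 189 and 135 in the sham mice. The groups overlapped, and the log2 difference was 0.09 ± 0.16 (SE; adjusted p = 0.939), with a 95% interval of 0.84-fold to 1.35-fold. Its sign turned with array weights and without sham mouse 5.

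Il17a, the neutrophil-recruiting cytokine of T helper 17 cells, read 215, 187, 212, 199.97 and 251 in the CLP mice, against 196, 209.7, 189, 211 and 219.6 in the sham mice. CLP mice held the highest and the lowest value, so the groups overlapped. The log2 difference was 0.05 ± 0.09 (SE; adjusted p = 0.944), which on a 95% interval leaves room for a change between 0.90-fold and 1.20-fold. The probe set stood 1.6 from background in CLP mice and 1.56 in sham mice. Markers of innate lymphoid and gamma-delta T cells, other sources of interleukin 17A, summed to 2687 to 3468 in CLP mice and 2442 to 4644 in sham mice, with 0 of 4 tested markers called. The brightest was Id2, at -0.32 (adjusted p = 0.631), and the lowest p was that of Zbtb16, at 0.48 (adjusted p = 0.356).

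Tgfb1, which encodes a cytokine that limits T cell activation and is stored in a latent form, has 2 probe sets at different distances from background. The brighter one, 1445360_at, read 331, 324, 295, 326 and 328 in the CLP mice, against 320.0, 333, 312, 292 and 315 in the sham mice. Its log2 difference was 0.03 ± 0.08 (SE; adjusted p = 0.958), with a 95% interval of 0.91-fold to 1.14-fold. The other, 1420653_at, read 65.6 to 91.0 in CLP mice and 59.2 to 91.6 in sham mice, which is background, and gave an unfiltered difference of -0.02 ± 0.11 (SE; adjusted p = 1). The files do not show which of these probe sets reads Tgfb1 mRNA.

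**Figure D4:**
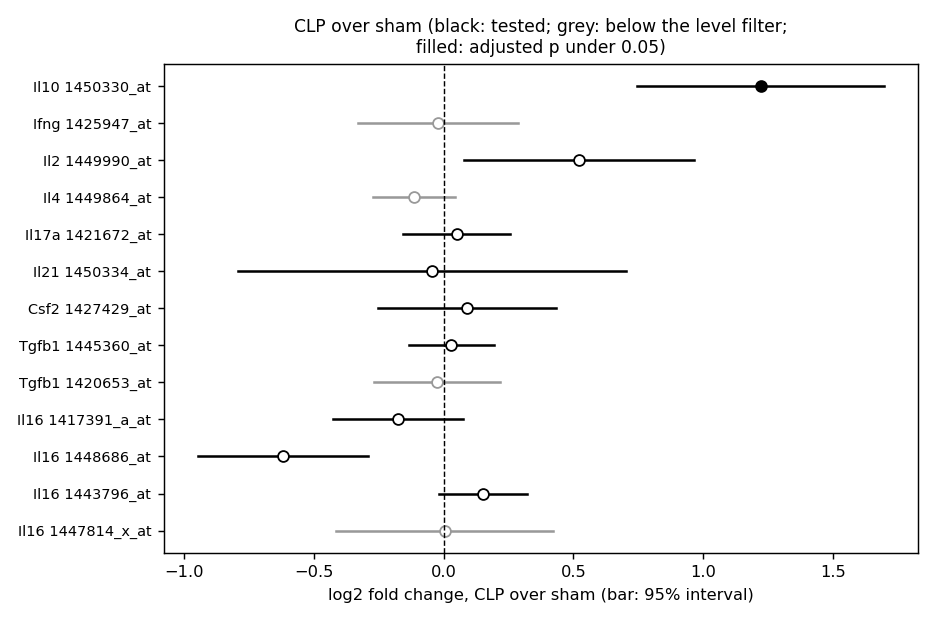
Log2 difference, CLP minus sham, of 13 member probe sets with their 95% intervals (Il3 and the second Il21 probe set, at the floor, are not drawn), from the fit of 27022 probe sets for those that passed the level filter and from the unfiltered fit for the others. Il10 lies at 1.22 and the Il16 probe set 1448686_at at -0.62, and the other intervals of tested probe sets reach across 0 except that of Il2.

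Il16, made as a precursor in resting T cells and cut to release a chemoattractant for CD4+ cells, was measured by 4 probe sets, of which 3 passed the level filter. Probe set 1448686_at read 849, 637, 598, 586 and 624 in the CLP mice, against 1044, 736, 1094, 955 and 1252 in the sham mice. The CLP values were below the sham values except that CLP mouse 1 exceeded sham mouse 2. The log2 difference was -0.62 ± 0.15 (SE) with a 95% interval of -0.95 to -0.29, a 1.53-fold lower mean, but it did not pass (adjusted p = 0.0948 in limma). It passed in 3 of 27 alternatives: with the 18S class as a block (adjusted p = 0.0293), with the 18S signal as a covariate (adjusted p = 0.0256) and without CLP mouse 1 (adjusted p = 0.0313). Within each class every CLP mouse lay below every sham mouse, with differences of -0.46 in the low class and -0.72 in the high class.

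The other Il16 probe sets gave smaller differences. Probe set 1417391_a_at, which the annotation ties to the same accession, read 1022, 1192, 1349, 1396 and 1123 in the CLP mice, against 1556, 1324, 1373, 1457 and 1151 in the sham mice. Its log2 difference was -0.18 ± 0.11 (SE; adjusted p = 0.691), with overlap between the groups. Subtracting it from 1448686_at within each array gave -0.89 ± 0.39 in CLP mice and -0.45 ± 0.37 in sham mice (SD, n = 5 each). These differed by -0.44, with p = 0.127 in an exact two-sided permutation test over 252 arrangements, whose smallest possible p is 0.00794, so a difference between the probe sets in their response was not shown. Probe set 1443796_at stood 0.85 from background in CLP mice and 0.71 in sham mice and gave 0.15 ± 0.08 (SE; adjusted p = 0.544). Probe set 1447814_x_at, near background at 0.33 in both groups, gave an unfiltered 0.00 ± 0.18 (SE; adjusted p = 1).

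**Figure D5:**
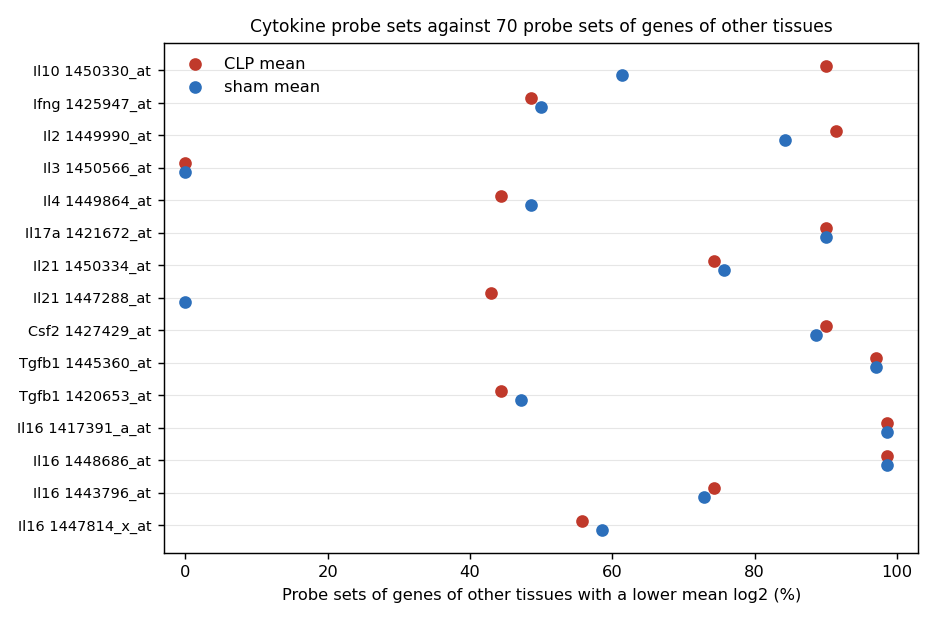
Percent of the 70 probe sets of genes restricted to other tissues that lie below the CLP mean and the sham mean of each member probe set. Ifng, Il4 and the Tgfb1 probe set 1420653_at exceed between 31 and 35 of the 70, and Il10 exceeds 90% of them in CLP mice and 61.4% in sham mice. Il3 is at the floor on all arrays, as are 27 of the 70, so it could exceed none.

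Counted over all 10 genes, 7 were tested, of which 1 was higher, 0 were lower and 6 did not pass. Over all 13073 genes represented by their brightest probe set, 0.199% were higher, 0.551% lower and 0.75% either. The median log2 difference of the 7 genes was 0.05, and that of all genes was 0.00. No tested member probe set had every CLP array below every sham array, against 2.11% of all tested probe sets.

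Other T cell cytokines were described from a list of 29 genes, of which 16 were tested. In this list 0 genes rose and 2 fell, and the median difference was 0.03. Tnfsf11, which encodes RANKL, a ligand that activated T cells present to dendritic cells and osteoclast precursors, fell by 1.023 on the log2 scale (SE 0.18; adjusted p = 0.0361), with means of 6.70 in CLP mice and 7.72 in sham mice. Tnfsf14, which encodes the costimulatory ligand LIGHT, fell by 0.80 (SE 0.12; adjusted p = 0.0225), with means of 6.48 in CLP mice and 7.28 in sham mice. Both fell with every CLP mouse below every sham mouse, and each passed in 3 of 10 analyses that left out 1 mouse. Tnfsf14 passed the level filter through the sham arrays: its CLP mean ranked above 33.9% of all probe sets, which is near background, and its sham mean above 56.0%, and for Tnfsf11 these were 40.1% in CLP mice and 65.8% in sham mice. Their differences are therefore in part against values near background, and without the filter neither passed (adjusted p = 0.0863 for Tnfsf14 and 0.1395 for Tnfsf11). Ltb, the membrane lymphotoxin subunit, differed by -0.58 without passing (adjusted p = 0.277).

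Receptors for the member cytokines gave 0 calls among 16 tested genes, with a median difference of -0.05. The lowest p was that of Ifngr1, the ligand-binding chain of the interferon gamma receptor, at 0.85 ± 0.19 (SE; adjusted p = 0.0676), with every CLP mouse above every sham mouse. On their brightest probe sets the TGF-beta receptor genes Tgfbr1 and Tgfbr3 gave -0.40 (adjusted p = 0.370) and -0.34 (adjusted p = 0.514). Their other tested probe sets gave 0.23 for Tgfbr1 and 0.03 for Tgfbr3, and with the probe sets of a gene averaged the differences were -0.053 for Tgfbr1 and -0.155 for Tgfbr3. Genes of TGF-beta storage and activation gave 0 calls among 5 tested, with a median of 0.10, and Furin, a protease that cuts the TGF-beta precursor, gave 0.53 ± 0.15 (SE; adjusted p = 0.134). Tgfb2 and Thbs1, an activator of latent TGF-beta, each gave 0.10.

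Transcription factors of cytokine genes were described from 37 tested genes, of which 0 rose and 1 fell by their brightest probe sets, with a median of 0.07. Rora, a T helper 17 factor, was called lower on 1 of its 8 tested probe sets, 1436325_at, at -0.58 (adjusted p = 0.0234), while its brightest gave 0.05 (adjusted p = 0.986). Tbx21, which encodes T-bet, the T helper 1 factor that switches on Ifng, fell by 0.93 (SE 0.17; adjusted p = 0.0358), with means of 7.89 in CLP mice and 8.82 in sham mice. It passed in 2 of 10 analyses that left out 1 mouse and not without the filter (adjusted p = 0.134). Foxp3, the regulatory T cell factor, gave 1.10 ± 0.22 (SE) with every CLP mouse above every sham mouse but did not pass (adjusted p = 0.0530), and it passed in 9 of 28 alternatives. Gata3, the T helper 2 factor, gave -0.46 ± 0.13 (SE; adjusted p = 0.147).

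IL-10 is known to induce a set of anti-inflammatory genes in macrophages, and of 7 such genes tested 1 rose and 0 fell, with a median of 0.23. Socs3, a feedback inhibitor of cytokine signalling, was called higher on 1 of its 3 tested probe sets. This was its brightest, which rose by 0.55 (SE 0.11; adjusted p = 0.0489 in limma). Its means were 12.88 in CLP mice and 12.33 in sham mice. It passed in 2 of 10 analyses that left out 1 mouse and not without the filter (adjusted p = 0.123). The other Socs3 probe sets gave 0.41 (adjusted p = 0.253) and 0.57 (adjusted p = 0.113), with overlap between the groups. Bcl3 gave 0.84 ± 0.25 (SE; adjusted p = 0.160) and Sbno2 gave 0.40 ± 0.14 (SE; adjusted p = 0.2495). Other cytokines also induce Socs3, and whether IL-10 did so here was not tested.

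Markers of CD4 T cells were measured beside the cytokine genes, and they do not show which cells gave the cytokine values. All 9 CD4 T cell markers with a probe set passed the level filter, none was at the floor, and by their brightest probe sets none was called. Their summed level was 16550 to 18220 in CLP mice and 17960 to 23470 in sham mice, and 8 of the 9 had a lower mean in CLP mice, with a median difference of -0.26. Trat1, an adaptor of the T cell receptor complex and the marker of lowest p, gave -0.72 (adjusted p = 0.0694) on its brightest probe set and fell by 1.28 on the other, 1437561_at (adjusted p = 0.0163), with every CLP mouse below every sham mouse on both. Cd5, an inhibitory surface receptor, gave -0.69 (adjusted p = 0.102), Cd3g -0.49 and Cd28 -0.35, which were chosen after their values were seen. The part of these markers in the cytokine values was not tested. Cd4 gave log2 means of 10.71 in CLP mice and 10.83 in sham mice, with a difference of -0.12. Cd3e, a chain of the T cell receptor complex, and Cd3d, the brightest marker, also differed by -0.12. Cd8a, which marks the other main T cell class, gave 8.44 in CLP mice and 8.35 in sham mice.

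The genes whose levels most resembled that of Il10 over the 10 arrays were Frmd4b (Pearson r = 0.956), Slc25a53 (0.951), 1500011B03Rik (0.951), Vti1a (0.949), Zfand5 (0.946) and Mboat1 (0.945). These correlations hold the difference between the groups, and of the 6 genes Frmd4b (adjusted p = 0.0225) and 1500011B03Rik (adjusted p = 0.0459) passed on their own. When each group's mean was taken off first, the genes nearest to Il10 were Bcat2 (0.937), Cul3 (0.935), Endou (0.926), Sash1 (0.924), P2ry10 (0.924) and Ggps1 (0.924), none of which passed between CLP and sham. The lists share no gene. They are the highest among all tested probe sets with 1 symbol, over 10 arrays, and describe these arrays.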

How the data were processed

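RNA of CD4+ splenocytes from 5 CLP and 5 sham mice was measured on 1 array per mouse. The authors deposited linear intensities, 1 per probe set and array. Their software and normalization were not given in the sources used here. Probe sets were named from the platform annotation. Of 45101 probe sets, 64 controls were left out. Arrays were scaled to a common median, values under the 25th percentile were set to it, log2 was taken, and probe sets under the 40th percentile of mean log2 were left out. CLP was compared with sham by limma 3.58.1 in R 4.3.3, with Benjamini-Hochberg adjustment over 27022 probe sets at 0.05. The fit was tested on simulated data. Member probe sets under the filter were taken from a fit of all probe sets. The members, the lists of cytokines, chemokines, receptors, TGF-beta activation, transcription factors, mRNA decay, IL-10 response, tissue-restricted and cell type genes, and the tests were chosen with earlier results of these data known. A gene stands for its brightest tested probe set with 1 symbol. From each pathway list the called genes were named, with others of lowest p up to 3, and from each cell type list the brightest marker and that of lowest p. Alternatives changed the scaling, floor, filter, variance model, covariates and mice. The number of arrays limits the precision. Sham arrays are all titled as replicate 1 and are numbered by the suffix of their titles.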

Additional observations from a re-analysis of the deposited data

Results flagged for a closer look

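Within each group, the highest or lowest mouse was compared with its nearest neighbour by Dixon's ratio for 5 samples, in 27 tests over the member probe sets, of which chance flags about 1 in 20. It picked out 6 values, given as log2 intensity. Il2 was 7.051 in sham mouse 5, below the other sham mice, the nearest of which was 7.417. The Il16 probe set 1448686_at was 9.729 in CLP mouse 1, above the other CLP mice, the nearest at 9.314, and without this mouse the difference passed (adjusted p = 0.0313 in limma). The Tgfb1 probe set 1445360_at was 8.206 in CLP mouse 3, below the nearest at 8.339. Near background, the Tgfb1 probe set 1420653_at was 6.508 in CLP mouse 2 against 6.216 in the nearest CLP mouse, and the Il21 probe set 1447288_at was 6.307 in CLP mouse 2 against the floor of 6.125 in the others. Values under the floor had been raised to it, in 2 CLP mice for this Tgfb1 probe set and in 4 for this Il21 one. For Il21 these ties fixed the ratio at 1.0. The floor shapes both flags, so the chance rate does not apply to them. The Il16 probe set 1447814_x_at was at the floor of 6.125 in sham mouse 1, against 6.514 in the nearest sham mouse.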

How the results depend on the processing

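In the comparison as reported, 45 probe sets were higher and 145 lower in CLP. The counts (higher, then lower) were 0 and 3 without a filter, where 3676 had an unadjusted p under 0.05 in limma, 15 and 38 without a filter and with the floor at the 1st percentile, 154 and 355 with array weights, 175 and 543 with an 18S class block, 190 and 550 with an 18S covariate, 123 and 271 with a macrophage marker covariate, and 24 and 61 with the probe sets of a gene averaged. Both counts were 0 and 0 within the high 18S arrays (3611 at an unadjusted p under 0.05) and within the low ones (1959), with fewer arrays in each. Without 1 mouse the counts were 0 to 123 higher and 4 to 383 lower. They were 123 and 383 without CLP mouse 1, 9 and 16 without CLP mouse 2, 10 and 14 without CLP mouse 3, 74 and 183 without CLP mouse 4, and 3 and 7 without CLP mouse 5. They were 8 and 28 without sham mouse 1, 6 and 19 without sham mouse 2, 0 and 4 without sham mouse 3 (2291 at an unadjusted p under 0.05), 6 and 11 without sham mouse 4, and 29 and 33 without sham mouse 5. The cause of these shifts was not tested.

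The replicate block, with the filter kept, gave 90 and 158, and Il10 passed with it (adjusted p = 0.0375). Same-numbered CLP and sham mice deviated together with correlations of 0.18, 0.58, 0.38, 0.18 and 0.06, not all over 0.1, so the numbers were not treated as pairs. CLP mice 1, 3, 4 and 5 correlated best with sham mice of other numbers.

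These differences, none of which passed, changed sign, and the cause was not tested. Il17a gave -0.12 in low 18S arrays, and -0.012 to 0.095 without 1 mouse (negative without CLP mouse 5). Il21 (1450334_at) gave 0.053 with the floor at the 10th percentile, and likewise with no filter and the floor at the 1st, 0.35 in high 18S arrays, and -0.27 to 0.18 without 1 mouse (positive without CLP mouse 3 or 5 or sham mouse 2 or 4). Csf2 gave -0.0042 with array weights and -0.031 to 0.18 without 1 mouse (negative without sham mouse 5). Tgfb1 (1420653_at) gave 0.045 with no filter and the floor at the 1st percentile. Cxcl10 gave -0.073 and Cd4 0.042 in low 18S arrays, and Thbs1 -0.054 and Tgfb2 -0.11 in high ones. Il10 was not tested with the filter at the 60th percentile. Filters at the 20th and 50th percentiles, the floor at the 1st, and the single-class analyses were chosen after the data were seen. Differences near background cannot be measured with these probe sets.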

Other observations

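Chemokine genes that T cells use to draw in other cells gave 0 calls among 8 tested in limma, with a median log2 difference of 0.06. Ccl20, which attracts T helper 17 cells, gave -0.12 (adjusted p = 0.857), Cxcl10, an interferon-induced attractant of T helper 1 cells, gave 0.11 (adjusted p = 0.859), and Ccl17, an attractant of T helper 2 cells, gave 0.07 (adjusted p = 0.927). All differences in that list lay between -0.12 and 0.11.

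Proteins that control the stability of cytokine mRNAs were described from 13 tested genes, of which 0 rose and 1 fell, with a median of -0.06. Mex3b, which encodes an RNA-binding protein, fell by 1.29 on the log2 scale (SE 0.19; adjusted p = 0.0225 in limma), with means of 7.49 in CLP mice and 8.78 in sham mice and every CLP mouse below every sham mouse. It passed in 5 of 10 analyses that left out 1 mouse and not without the filter on low values (adjusted p = 0.0905). Elavl1, which encodes the stabilizing protein HuR, gave -0.37 (adjusted p = 0.232), and Hnrnpd, which encodes AUF1, gave 0.18 (adjusted p = 0.483). With the probe sets of a gene averaged these were -0.056 for Elavl1 and 0.093 for Hnrnpd.

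No marker of the cell types below was called. Summed platelet markers were 1204 to 1601 in CLP mice and 1604 to 1726 in sham mice, without overlap. Itgb3, the brightest and that of lowest p, gave -0.44 (adjusted p = 0.136). It was the only 1 of 5 tested platelet markers with a lower mean in CLP mice, and the other 4 had a higher mean. The lower sum therefore does not stand for the list. Summed erythroid markers were 1076 to 4554 in CLP mice and 701.1 to 2130 in sham mice, with the globin gene Hba-a1 at the floor on all arrays and Slc4a1, the brightest and that of lowest p, at 1.42 (adjusted p = 0.364). Summed neutrophil markers were 3853 to 17460 in CLP mice and 5050 to 12680 in sham mice, with S100a8 the brightest at 10.28 in CLP mice and 11.1 in sham mice and Camp of lowest p at 0.86 (adjusted p = 0.481). Summed mast cell and basophil markers, a source of interleukin 4, were 1845 to 2866 in CLP mice and 1732 to 2357 in sham mice, with Fcer1a and Mcpt4 at the floor on all arrays, Gata2 the brightest at 9.162 in CLP mice and 9.111 in sham mice, and Hdc of lowest p at 0.17 (adjusted p = 0.783). Summed plasma cell markers were 10140 to 14500 in CLP mice and 11090 to 14210 in sham mice, dendritic cell markers 1739 to 2135 in CLP mice and 1445 to 1947 in sham mice, and CD8 T cell markers 464.5 to 575.2 in CLP mice and 391.0 to 540.9 in sham mice. The brightest plasma cell marker, Jchain, was 12.8 in CLP mice and 12.95 in sham mice, and that of lowest p, Irf4, gave -0.28 (adjusted p = 0.484). The brightest gene of the dendritic cell list, Ccr7, gave 0.21 (adjusted p = 0.789), and that of lowest p, Flt3, gave 0.13 (adjusted p = 0.743). Which cells gave the Ccr7 signal was not tested. Of the genes restricted to other tissues, 16 were tested, none was called and the median difference was 0.02.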
